A study of Homo sapiens with 4 samples.

Results

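LIPH, LPCAT2, LPIN3 and HSD17B14 encode lipid enzymes, and they were the 4 genes examined among the 1232 that the deposited expression table lists. They were taken by name and had been chosen by their values in the same contrast that is described here, so their levels are given as a description, with no test, and support nothing further. The table holds only genes with a deposited unadjusted p of at most 0.0499. RNA was sequenced from AMO1, a multiple myeloma cell line of human origin, transduced with a lentiviral pCDH vector. In the control group (EV, 2 libraries) the vector was empty, and in the other (PHF19_OE, 2 libraries) it served to overexpress PHF19, a Polycomb-like partner of the histone-methylating complex PRC2. The sources used here do not give the promoter of the transgene or say whether the cells were clones or pools. PHF19 itself stood at 1842 and 4506 normalized counts in EV replicates 1 and 2, and at 9223 ± 631 (SD, n = 2) in PHF19_OE, and it did not pass an adjusted p of 0.05 in the authors' deposited table (0.0897).

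The members act on neighbouring classes of membrane lipid and steroid. LIPH is a phospholipase that releases lysophosphatidic acid, a lipid mediator that cells sense through G protein-coupled receptors, and its loss causes a hereditary form of sparse hair. LPCAT2 adds an acyl chain back to lysophospholipids and also makes platelet-activating factor, chiefly in inflammatory cells. Lipins such as LPIN3 remove the phosphate from phosphatidic acid to give diacylglycerol, the precursor of neutral fat and of several phospholipids. HSD17B14 is a short-chain dehydrogenase that oxidises the 17-beta-hydroxyl group of oestradiol and related steroids.

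Of the members, 1 had an entry in the RefSeq promoter table used here (build GRCh38.p14), LIPH. LPCAT2, LPIN3 and HSD17B14 are named only. The LIPH stretch is shown because its CpG content can be read directly from it. It runs along the minus strand of chr3:185552539-185552838, from 250 bases before the annotated start to 50 bases after it, with each CG dinucleotide in capitals:

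LIPH: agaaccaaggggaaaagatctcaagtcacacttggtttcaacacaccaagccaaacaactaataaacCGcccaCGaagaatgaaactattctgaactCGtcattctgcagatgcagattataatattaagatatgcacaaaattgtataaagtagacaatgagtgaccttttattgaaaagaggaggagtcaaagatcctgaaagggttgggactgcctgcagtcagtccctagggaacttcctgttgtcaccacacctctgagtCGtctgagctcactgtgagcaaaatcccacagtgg

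This stretch held 4 CG dinucleotides, an observed-to-expected ratio of 0.289, and 43.0% of its bases were G or C. Over the 35116 promoters of the table the median was 14 CG dinucleotides and 58.7% G or C. A count of 4 or fewer was found in 29.6% of them, so the LIPH promoter lay among the CG-poor ones without being rare. The letters TATAAA, searched on both strands, matched once, beginning 105 bases before the start, and 11.5% of all the promoters hold them. These are descriptions of letters only.

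The files gave 3 values per gene and library: the raw read count, a normalized count (the count divided by 1 factor per library) and FPKM, which divides by gene length and library total. Library totals, as the ratio of count to FPKM gives them, were 35258920 and 29461022 reads in EV and 23835805 and 28156519 in PHF19_OE. The EV libraries differed from each other in many listed genes: on log2 of the normalized count plus 1, 500 of 1232 (40.6%) were over 2-fold higher in EV replicate 1 and 167 (13.6%) over 2-fold higher in EV replicate 2. The listed genes took 7.07% of the reads of EV replicate 1 and 3.97% to 4.38% of those of the other libraries. Each member is therefore set against each EV library as well as against both. Intervals below are exact 95% Poisson intervals of the read counts and cover counting error only, and a count of 0 is set against a floor of 3 counts over both PHF19_OE libraries, which equals 1.66 normalized counts. The cells were sequenced in bulk, so fewer cells carrying a transcript and less of it per cell cannot be told apart.

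All 4 members were lower in both PHF19_OE libraries than in both EV libraries, and 2 of them, LIPH and LPCAT2, had no read there. Of all listed genes, 54.3% had both PHF19_OE libraries below both EV libraries. No read in either PHF19_OE library was found for 93 of the 1232 (7.55%). All 4 also passed an adjusted p of 0.05 in the authors' deposited table as lower, where 1.07% did of the 16881 genes that the deposited adjustment implies were tested. Since the members were chosen on this contrast, nothing is read from any of these counts. The size of the difference and the spread between the EV libraries were unlike from member to member.

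LIPH (ENSG00000163898) occupies bases 185506262 to 185552613 of chromosome 3 (hg38, minus strand). It had 332 reads in EV replicate 1, 53 in EV replicate 2 and 0 in each PHF19_OE library. Its normalized counts were 263 (235 to 293) and 51.8 (38.8 to 67.8) in the EV libraries, a mean of 157 ± 149 (SD, n = 2). EV replicate 1 was the high library, 5.07-fold above EV replicate 2 with a counting interval of 3.79 to 6.92, and both stood clear of the empty PHF19_OE libraries. Against the floor the EV mean was 94.9-fold higher, EV replicate 1 alone 159-fold and EV replicate 2 alone 31.3-fold. These ratios leave out counting error and are no bounds.

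LPCAT2 (ENSG00000087253; chromosome 16, 55508998 to 55586670, plus strand) showed the opposite order within EV. It had 94 reads in EV replicate 1 and 202 in EV replicate 2, and 0 in both PHF19_OE libraries. The normalized counts were 74.5 (60.2 to 91.1) and 198 (171 to 227), a mean of 136 ± 87.0 (SD, n = 2). EV replicate 2 was here the high library, by 2.65-fold with a counting interval of 2.07 to 3.43. The EV mean was 82.0-fold above the floor, EV replicate 1 alone 44.9-fold and EV replicate 2 alone 119-fold, again with counting error left out. A long non-coding gene on the same strand, AC007336.1, shares 190 exon bases with LPCAT2 in GENCODE release 29, so that reads over them could belong to either.

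LPIN3 (ENSG00000132793; chromosome 20, 41340920 to 41360582, plus strand) was the member with the fewest reads and the smallest gap between the EV libraries. It had 87 and 44 reads in the EV libraries, 4 in PHF19_OE replicate 1 and 0 in PHF19_OE replicate 2. The normalized counts were 68.9 (55.2 to 85.0) and 43.0 (31.3 to 57.8) in EV, with a mean of 56.0 ± 18.3 (SD, n = 2), against 4.81 (1.31 to 12.3) and 0 in PHF19_OE. Neither EV interval reached that of PHF19_OE replicate 1. The read counts pooled by group and divided by the summed factors gave a ratio of 25.9, and its counting interval ran from 9.89 to 96.6. That ratio was 31.2 (11.7 to 117) with EV replicate 1 alone and 19.5 (7.08 to 74.6) with EV replicate 2 alone. The end of LPIN3 overlaps EMILIN3 on the other strand over 617 exon bases, and since the sources used here do not say whether counting used strand, reads there cannot be told apart.

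HSD17B14 (ENSG00000087076; chromosome 19, 48813017 to 48836678, minus strand) owed nearly all of its difference to 1 library. It had 895 reads in EV replicate 1, 39 in EV replicate 2, 15 in PHF19_OE replicate 1 and 25 in PHF19_OE replicate 2. As normalized counts these were 709 (663 to 757) and 38.1 (27.1 to 52.1) in EV, and 18.0 (10.1 to 29.7) and 25.6 (16.6 to 37.8) in PHF19_OE. EV replicate 1 stood 18.6-fold above EV replicate 2 (counting interval 13.5 to 26.3), and the interval of EV replicate 2 overlapped both of those from PHF19_OE. The EV mean was 374 ± 474 and the PHF19_OE mean 21.8 ± 5.35 (SD, n = 2 each). The pooled ratio was 18.5 (13.5 to 26.0) with both EV libraries, 32.1 (23.4 to 45.2) with EV replicate 1 alone and 1.73 (1.08 to 2.75) with EV replicate 2 alone. Without EV replicate 1, HSD17B14 was thus less than 2-fold lower in PHF19_OE.

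**Figure D1:**
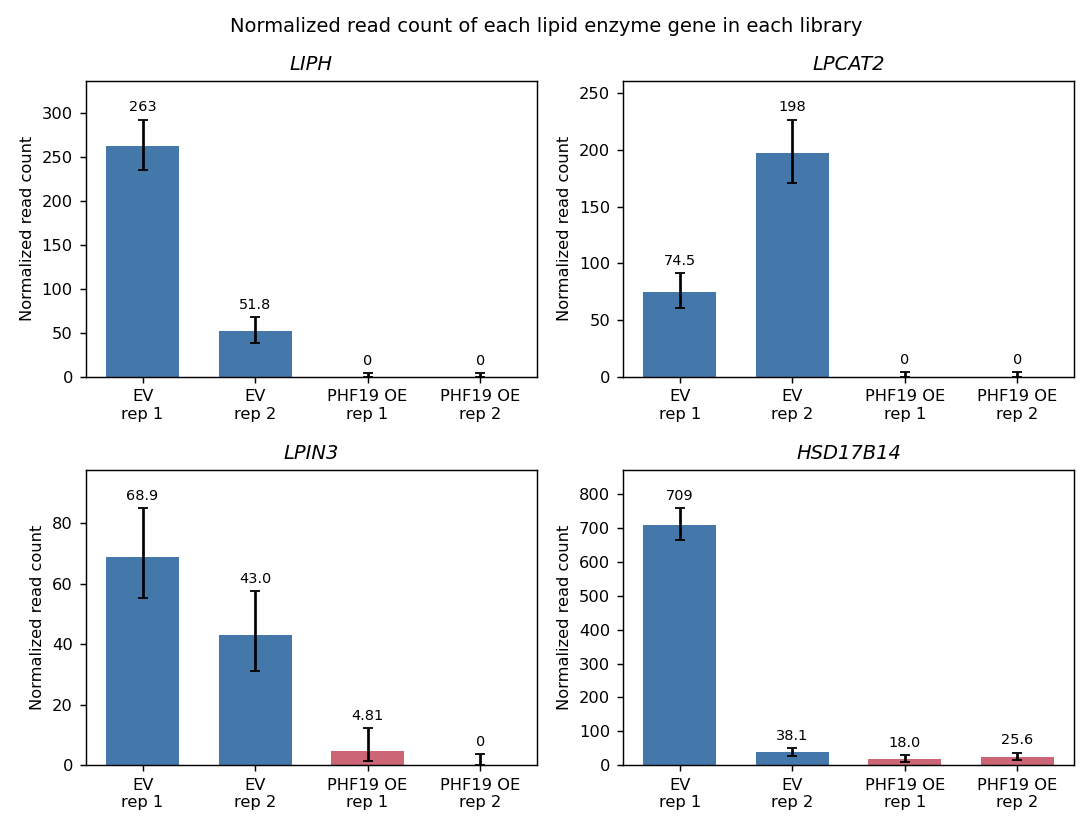
Normalized read count of LIPH, LPCAT2, LPIN3 and HSD17B14 (vertical axis, linear from 0, own scale in each panel) in the 2 EV and 2 PHF19_OE libraries (horizontal axis). Bars are single libraries and error bars exact 95% Poisson intervals of the read count; LIPH and HSD17B14 peak in EV replicate 1 at 263 and 709, LPCAT2 peaks in EV replicate 2 at 198, and LPIN3 is present in both at 68.9 and 43.0.

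The authors' deposited table gave log2 fold changes of -9.59 for LIPH, -9.38 for LPCAT2, -4.59 for LPIN3 and -4.10 for HSD17B14. Those of LIPH and LPCAT2 rest on groups with 0 reads and are no bound. The deposited adjusted p-values were 7.72e-06, 6.73e-06, 0.0442 and 0.00485 in the same order, so that LPIN3, with the fewest reads, was the nearest of the 4 to 0.05. HSD17B14 had the smallest of these fold changes but the widest EV pair.

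Set against all listed genes, the EV gap of HSD17B14 was among the wider ones. On log2 of the normalized count plus 1, EV replicate 1 minus EV replicate 2 was 4.18 for HSD17B14, 2.32 for LIPH, 0.67 for LPIN3 and -1.40 for LPCAT2, and the median over the 1232 listed genes was 0.55. A larger gap in the same direction than that of HSD17B14 was found in 3.98% of listed genes, and one larger than that of LIPH in 15.9%. Gaps toward EV replicate 2 are not counted in these shares. LPIN3 was close to the median of the table, and LPCAT2 went the other way.

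**Figure D2:**
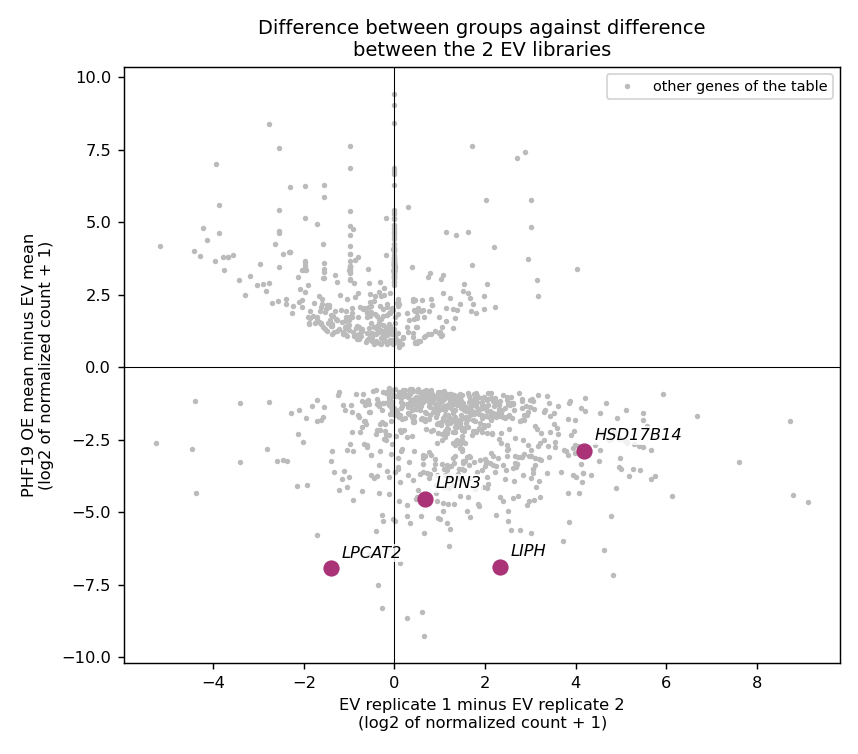
Difference between the EV libraries (horizontal axis, EV replicate 1 minus EV replicate 2) against the difference between the groups (vertical axis, mean of PHF19_OE minus mean of EV), both on log2 of the normalized count plus 1, for the 1232 listed genes (grey) and the 4 members (purple). The table holds only genes with a deposited p of at most 0.0499; HSD17B14 sits far to the right at 4.18 and LPCAT2 left of 0 at -1.40.

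Per length, HSD17B14 was the highest member in every library. In EV replicate 1 the FPKM level was 19.8 for HSD17B14, 2.28 for LIPH, 0.540 for LPIN3 and 0.358 for LPCAT2. The intervals of LPIN3 (0.433 to 0.666) and LPCAT2 (0.290 to 0.439) just met, which by itself does not show that their levels were equal. In EV replicate 2 the FPKM level was 1.03 for HSD17B14, 0.922 for LPCAT2, 0.436 for LIPH and 0.327 for LPIN3. There the intervals of HSD17B14 (0.735 to 1.41) and LPCAT2 (0.799 to 1.06) overlapped, as did those of LIPH (0.327 to 0.571) and LPIN3 (0.238 to 0.439). LPCAT2 was thus among the 2 lowest members in EV replicate 1 and among the 2 highest in EV replicate 2. In PHF19_OE, HSD17B14 was left at 0.491 and 0.693 FPKM and LPIN3 at 0.0367 and 0, and a floor of 3 reads in 1 library corresponds to 0.0305 and 0.0258 FPKM for LIPH and to 0.0169 and 0.0143 for LPCAT2. The deposited gene length of each member (4122, 7439, 4568 and 1281 bases for LIPH, LPCAT2, LPIN3 and HSD17B14) equals the union of its exons in GENCODE release 29.

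**Figure D3:**
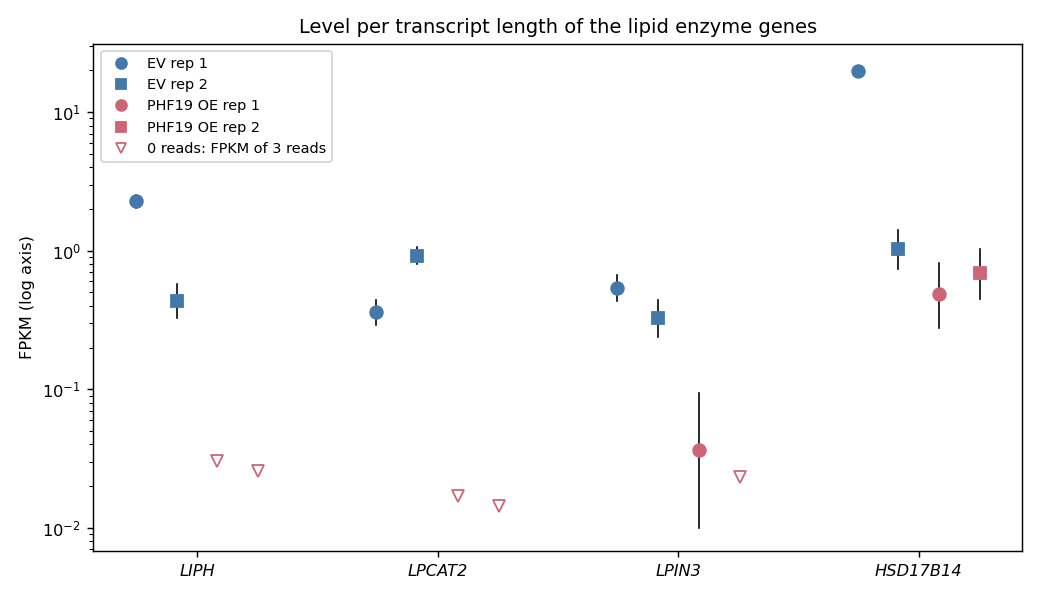
FPKM (vertical axis, log scale) of each member in each library, with exact 95% Poisson intervals as vertical lines; open triangles mark libraries with 0 reads, drawn at the FPKM of 3 reads. HSD17B14 in EV replicate 1, at 19.8, stands above all other points, and its other libraries lie between 0.491 and 1.03.

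The wider lipid pathways were looked at through 8 lists, chosen with earlier results of these data known, with 198 genes in all. Besides the members, 10 of these genes were in the table, and by the authors' deposited table, lower calls at an adjusted p of 0.05 numbered 2, higher calls 0, and 8 genes did not pass. The lower calls were 1.03% of the list genes other than the members, whether tested or not. Over the 16881 genes that the deposited adjustment implies were tested, the share was 1.07%. The denominators are unlike, so nothing is read from these shares. For these 10 the median deposited log2 fold change was -1.08, against -1.33 over all listed genes. Genes outside the table are not analysed here.

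The lists around LIPH and LPCAT2 held few other listed genes. Among 36 lipases and phospholipases, the other was PLA2G4C, a cytosolic phospholipase A2, at normalized counts of 248 and 42.0 in EV against 44.5 and 21.5 in PHF19_OE (authors' deposited adjusted p = 0.438). Only EV replicate 1 of PLA2G4C stood apart, and the groups overlapped. Among 19 lysophospholipid acyltransferases, the other was LPGAT1, which acylates lysophosphatidylglycerol. Its normalized counts were 1161 and 1014 in EV and 2171 and 2193 in PHF19_OE, a direction opposite to that of LPCAT2 (authors' deposited adjusted p = 0.231). The counts of LPGAT1 did not overlap between the groups and were close within each.

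Among 19 genes of signalling by lysophosphatidic acid, platelet-activating factor and sphingosine 1-phosphate, ENPP2 was the listed one. It encodes autotaxin, a secreted enzyme that, like LIPH by another route, produces lysophosphatidic acid. ENPP2 fell, with normalized counts of 173 and 39.1 in EV against 13.2 and 4.09 in PHF19_OE and an adjusted p of 0.0322 in the authors' deposited table. Its ratio of group means was 12.3, or 4.52 with EV replicate 2 alone, and EV replicate 1 was 4.44-fold above EV replicate 2. None of the receptors in this list was in the table.

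In the list of 37 lipins, phosphatidate phosphatases and glycerolipid synthesis genes, MOGAT2, DGKD and DGKE were listed besides LPIN3, and none passed. DGKD and DGKE are diacylglycerol kinases, which turn the product of lipins back into phosphatidic acid. DGKE stood at 3385 and 2575 normalized counts in EV and 1458 and 1256 in PHF19_OE (adjusted p = 0.144 in the authors' deposited table). DGKD stood at 2067 and 1477 against 869 and 864 (adjusted p = 0.287, same table), so for both kinases the groups did not overlap. MOGAT2, a monoacylglycerol acyltransferase, had 74 and 2 reads in EV and 0 in PHF19_OE (adjusted p = 0.0996, same table), so that it was seen almost solely in EV replicate 1.

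HSD17B14 was the sole listed gene among 12 17-beta-hydroxysteroid dehydrogenases. Of 27 other steroid enzymes and sex steroid receptors, HSD11B1 and ESR2 were listed. HSD11B1, which regenerates active cortisol from cortisone, fell (adjusted p = 0.000605 in the authors' deposited table). Its normalized counts were 224 and 25.4 in EV and 2.40 and 2.05 in PHF19_OE (2 reads in each), and the pooled count ratio was 61.2 (23.6 to 226). EV replicate 1 was 8.82-fold above EV replicate 2, and neither came near PHF19_OE. ESR2, the oestrogen receptor beta, had 15.0 and 118 in EV and 280 and 354 in PHF19_OE and did not pass (adjusted p = 0.212, same table). INSIG1, which restrains cholesterol synthesis, was 1 of 31 listed in its group, at 5462 and 15430 in EV and 25194 and 18665 in PHF19_OE (adjusted p = 0.663, same table). ALOX5, the leukotriene-forming lipoxygenase and 1 of 17 eicosanoid genes, had 210 and 105 against 375 and 315 (adjusted p = 0.619, same table).

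**Figure D4:**
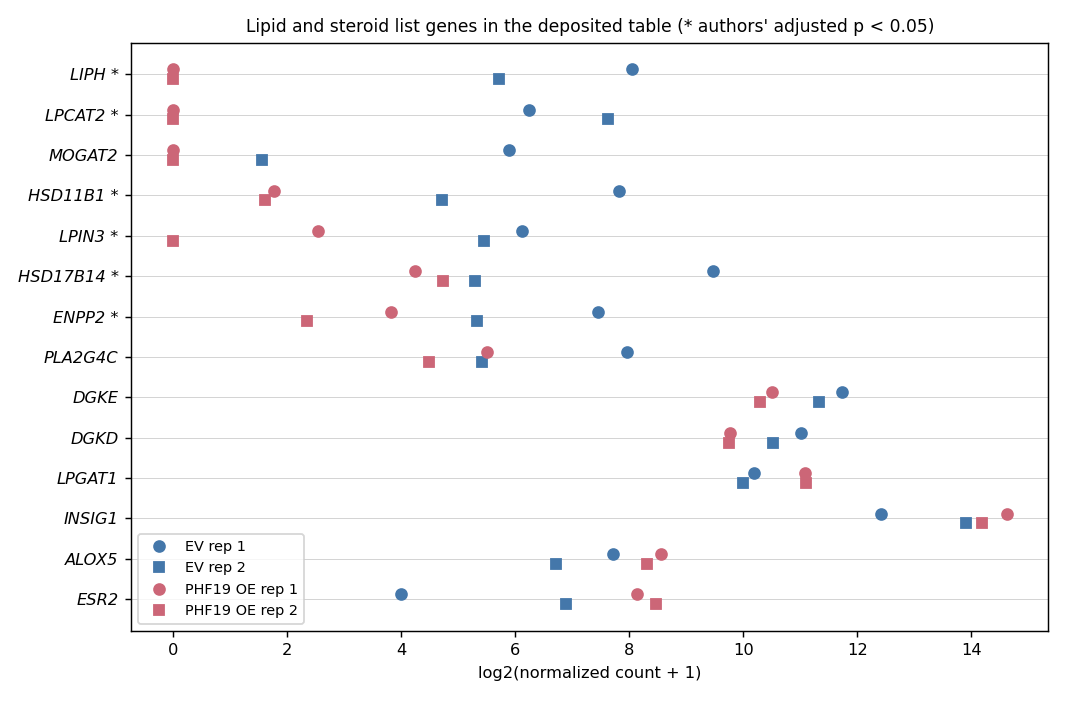
Level of the 14 lipid and steroid list genes found in the table, as log2 of the normalized count plus 1 (horizontal axis), in EV (blue) and PHF19_OE (red), replicate 1 as circles and replicate 2 as squares. Asterisks mark genes that pass 0.05 on the deposited adjusted p; they fall on the 4 members, ENPP2 and HSD11B1, all with both PHF19_OE libraries left of both EV libraries.

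Some markers of other cell types moved in the same direction, and their part in these results was not tested. Of 8 epithelial markers CDH1 was listed, at normalized counts of 99.0 and 9.78 in EV and 1.20 and 0 in PHF19_OE. Of 12 myeloid markers ITGAM was listed, at 94.3 and 15.6 in EV and 0 in both PHF19_OE libraries. Both passed in the authors' deposited table (adjusted p = 0.0426 for CDH1 and 0.00377 for ITGAM). By the authors' factors both were highest in EV replicate 1, as LIPH, LPIN3 and HSD17B14 were and LPCAT2 was not. For LPIN3 this order reversed with factors taken from the listed genes. Summed over CD3E and TRAC, the 2 listed of 14 T and NK cell markers, the counts were 85.5 and 40.1 against 2.40 and 5.12, and neither gene passed (adjusted p = 0.194 and 0.429 in the authors' deposited table). Of 6 erythroid markers HBB was listed and was higher in PHF19_OE, at 58.6 and 24.4 against 233 and 180 (adjusted p = 0.0353 in the authors' deposited table). Of 9 fibroblast and endothelial markers none was listed. Of 12 plasma cell markers CD38, FCRL5 and GPRC5D were listed and had reads in all 4 libraries, and the other 9 are not analysed here. CD38 fell (adjusted p = 0.00359 in the authors' deposited table), and FCRL5 and GPRC5D did not pass. The summed normalized counts of these 3 were 8187 and 3278 in EV and 2305 and 1820 in PHF19_OE, but the genes differed. CD38 had 3228 and 2138 in EV against 901 and 660 in PHF19_OE. FCRL5 had 310 and 38.1 against 49.3 and 49.1, and GPRC5D 4649 and 1101 against 1354 and 1110. In FCRL5 and GPRC5D only EV replicate 1 was high, and EV replicate 2 lay below both PHF19_OE libraries.

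The members did not share 1 pattern over the 4 libraries. Likeness was measured as the Euclidean distance between gene-centred values of log2 of the normalized count plus 1 over the 4 libraries, among the 1019 protein-coding genes listed. Between members this distance ran from 2.63 for LIPH and LPCAT2 to 5.66 for LPCAT2 and HSD17B14. Other genes were nearer to each member than any fellow member was. With 1019 genes to draw on and few fellow members, that was likely from the start, and nothing is read from it. Nearest to LIPH was CLEC9A, a dendritic cell lectin receptor (distance 0.717), and SLC15A3, a peptide and histidine transporter, was also among its 3 nearest (1.33). CLEC9A had normalized counts of 2124 and 293 in EV and 7.21 and 10.2 in PHF19_OE. LPCAT2 was nearest to PDCD1, the gene of the PD-1 checkpoint receptor (0.917), HLA-DPA1, an MHC class II chain (0.993), and the growth factor gene PDGFB (1.10), all of which were similar in both EV libraries. PDCD1 stood at 158 and 203 in EV and 0 in both PHF19_OE libraries.

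LPIN3 was nearest to CHRNA1, a muscle acetylcholine receptor subunit (0.713), ADGRE1, an adhesion receptor of myeloid cells (0.840), and the cytokine gene IL32 (0.887). In each of these, as in LPIN3, PHF19_OE replicate 1 kept a few reads (6 for CHRNA1, 6 for ADGRE1, 9 for IL32) while PHF19_OE replicate 2 had at most 1. Closest to HSD17B14 were TRIM29 (0.445), the vitamin B12 uptake receptor gene CUBN (0.497) and the calcitonin receptor gene CALCR (0.547), each high in EV replicate 1 alone. CUBN had 524 and 29.3 normalized counts in EV and 10.8 and 12.3 in PHF19_OE. TRIM29 and CALCR had 33 and 56 reads in EV replicate 1, 1 each in EV replicate 2 and 0 in both PHF19_OE libraries. Neither passed (adjusted p = 0.572 and 0.238 in the authors' deposited table). HSD17B14 kept 39 reads in EV replicate 2 and 15 and 25 in PHF19_OE, so its likeness to TRIM29 and CALCR rests partly on the pseudocount. LIPH and LPCAT2 had 0 reads in both PHF19_OE libraries and LPIN3 had 4 and 0, so their distances rest partly on it too. The likeness is a description over 4 libraries.

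**Figure D5:**
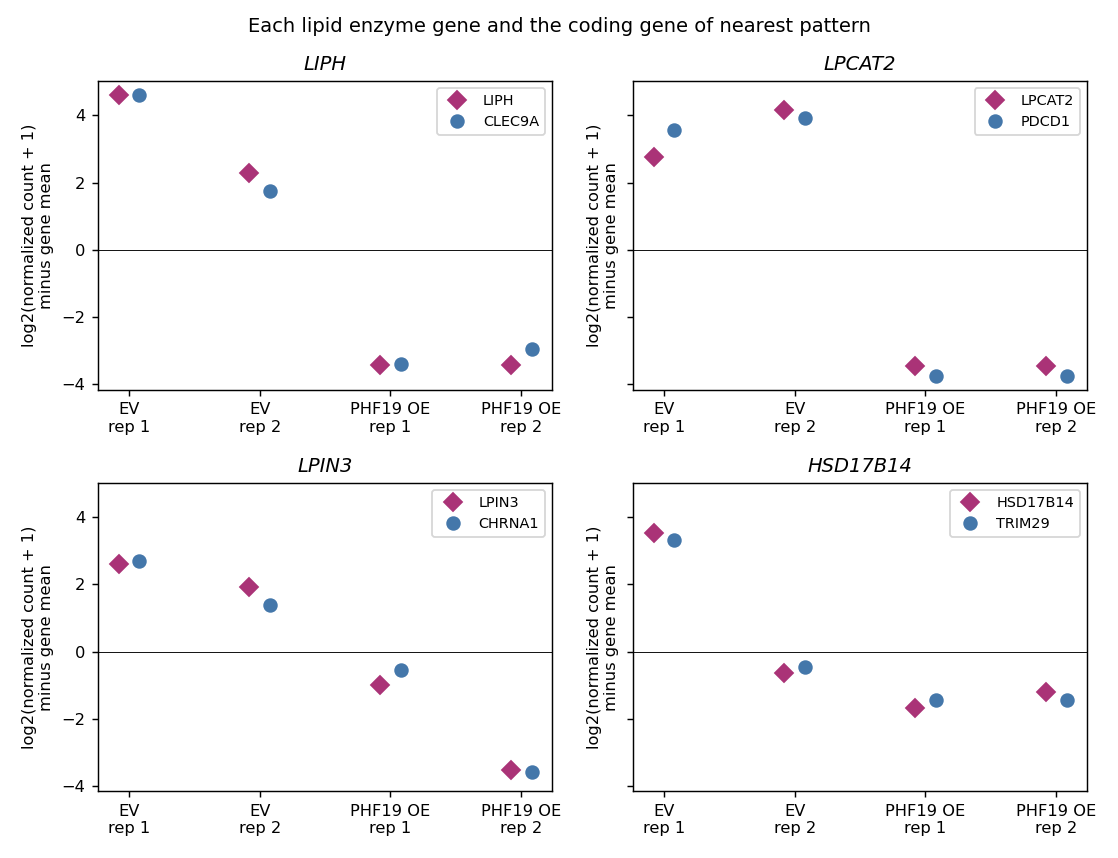
Gene-centred log2 of the normalized count plus 1 (vertical axis) in the 4 libraries (horizontal axis) for each member (purple diamonds) and the protein-coding gene nearest to it (blue circles). The HSD17B14 panel is high in EV replicate 1 alone, the LPCAT2 panel is high in both EV libraries, and the LIPH and LPIN3 panels lie between.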

How the data were processed

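RNA was sequenced from 4 AMO1 libraries, 2 EV and 2 PHF19_OE, mapped to columns by the short names in their titles; the labels do not say that replicates were separate cultures, so spread may be technical. Per the labels' protocols, libraries came from a SMARTER mRNA kit, and per the submitters' processing notes the build was hg38. The sources used here name no aligner, counting program, strand setting or test. The deposited table holds raw read counts, a normalized signal (count over 1 factor per library: 1.26, 1.02, 0.832 and 0.977), FPKM, log2 fold changes and p-values, per the file headers, for genes with a p up to 0.0499. Adjustment over 16881 genes returned 1208 of the deposited adjusted p-values (relative tolerance 1e-06); the other 24 equal 1.

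Members and lists were chosen with earlier results of these data known. Named genes are the members, listed genes of the lipid and marker lists, the 3 coding genes nearest each member in pattern, and listed genes within 1 Mb; some that the rule names are not reported here. Of the lipid names 199 matched an identifier, and 3 genes are named under an older and a newer symbol. Medians and distances use a pseudocount of 1. To see how calls depended on settings, edgeR 4.0.16 (quasi-likelihood test, filterByExpr, authors' factors, R 4.3.3) and DESeq2 1.42.0 were run on the listed counts, after a test on simulated data. The listed genes had been selected on these same libraries, so these calls are no independent evidence. Members were not tested.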

Additional observations from a re-analysis of the deposited data

How the results depend on the processing

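Each member's log2 difference was PHF19_OE minus EV on log2 of the normalized count plus 1. It kept its sign under all 40 alternatives run (pseudocounts, scalings, FPKM plus 1, each library left out). The groups overlapped for no member under any of the 4 scalings. Of all listed genes, 54.3% had both PHF19_OE libraries below both EV libraries under the authors' factors. For LIPH and LPCAT2, with 0 reads in PHF19_OE, both outcomes were fixed in advance. For LPIN3 and HSD17B14 the groups did not overlap, so the sign was also fixed under other pseudocounts and with a library left out. All 4 members were chosen on this contrast, so neither outcome is read as support. The size of the difference depended on the scale. From -6.88, -6.94, -4.53 and -2.89 for LIPH, LPCAT2, LPIN3 and HSD17B14, log2 of FPKM plus 1 gave -1.12, -0.69, -0.49 and -2.03, and a pseudocount of 5 gave -4.63, -4.67, -3.09 and -2.73. Leaving out 1 library at a time, it ran from -8.04 to -5.72 for LIPH, -7.63 to -6.24 for LPCAT2, -5.79 to -3.26 for LPIN3 and -4.98 to -0.80 for HSD17B14, whose smallest value is the one without EV replicate 1. The TMM and DESeq2 methods take most genes as unchanged, but the listed genes were selected as different. Of them, 63.6% were lower in PHF19_OE, so factors from them can absorb part of the group difference. Relative to those of the authors, the TMM and DESeq2 factors from the listed genes shifted PHF19_OE against EV by 0.80 and 0.94 on the log2 scale before the pseudocount. The differences were then -6.50 and -6.43 for LIPH, -6.56 and -6.49 for LPCAT2, -3.99 and -3.91 for LPIN3 and -2.11 and -1.97 for HSD17B14, which in EV replicate 2 was 1.48 and 1.27 times the PHF19_OE mean, against 1.75. The authors' 293 calls became 185 at an adjusted p of 0.01 and 1232 at an unadjusted p of 0.05. The listed genes had been selected on these same libraries, so the refitted calls that follow are no independent evidence. EdgeR's 149 calls (72 lower, 77 higher) among the 1066 listed genes past filterByExpr became 197 (70 lower, 127 higher) with TMM, 297 with a replicate block and, over all 1232 genes with no filter, 55. DESeq2, also over all 1232, gave 363, so that both the tool and the filter differ from the 149. The labels do not say that equal numbers were paired (deviations correlated at 0.208, 1 value for both pairs). Leaving out 1 library leaves 1 in its group, which is then assumed to vary like the other group's pair, and gave 28 (without PHF19_OE replicate 2) to 1093 (without EV replicate 2), with 603 without EV replicate 1 and 35 without PHF19_OE replicate 1. These counts thus rest on the spread of 1 pair each, and the cause of the changes was not tested. The count of members over 2-fold lower, an alternative chosen after seeing the data, was 3 without EV replicate 1 and 4 otherwise. The median deposited log2 fold change over all listed genes was -1.33, and the members were chosen on this contrast. Nothing is therefore read from this count.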

Other observations

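Some listed genes lay near the members in the genome. None was within 1 Mb of LIPH. HSD17B14 had 5 such neighbours: FGF21, a fasting-induced hormone gene 54.7 kb away, PPFIA3, CD37, PLA2G4C and the antisense gene AC010643.1. The leukocyte tetraspanin gene CD37, 498 kb away, stood at 177 and 213 normalized counts in EV and 3.60 and 6.14 in PHF19_OE (adjusted p = 1.43e-08 in the authors' deposited table). Its EV libraries were close, unlike those of HSD17B14. FGF21 stood at 23.8 and 6.84 in EV and 0 in both PHF19_OE libraries and did not pass (adjusted p = 0.350, same table).

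GNAO1, 605 kb from LPCAT2, had 61.0 and 2.93 normalized counts in EV and 4.81 and 0 in PHF19_OE and did not pass (adjusted p = 0.672 in the authors' deposited table).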
